A study of Mus musculus with 4 samples.

Results

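The cells described here were monocytes with a high share of class II transcripts and few transcripts of the dendritic cell, C1q macrophage and lipid-associated macrophage programmes, taken from the livers of mice fed a methionine/choline-deficient diet (MCD). They were chosen by a rule on transcripts. A cell entered when H2-Aa, H2-Ab1, H2-Eb1 and Cd74 together made up at least 1% of its unique molecular identifiers (UMIs, counts of single captured transcripts) and Lyz2 at least 0.2%. It also had to hold at most 1 UMI of Cd209a, Clec10a, Mgl2, Flt3, Ccr7 and Fscn1 in sum, less than 0.1% of UMIs from C1qa, C1qb and C1qc, and fewer than 3 of the genes Trem2, Gpnmb, Spp1, Lpl and Cd9. The rule took 264 of the 6088 MCD cells with 200 or more genes and no more than 10% of UMIs from mitochondrial genes, 168 in MCD replicate 1 and 96 in MCD replicate 2. They are called class II-high monocytes below. The cells they were set against, called class II-low cells, met the same Lyz2 condition and the same exclusions but had class II transcripts below 1%, and numbered 956 and 1100. Values of the genes in the rule describe the choice and are given without a test.

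The study compared intrahepatic monocyte-derived macrophages between a normal control diet (NCD) and MCD, with 2 droplet single-cell libraries per diet. All animals were male wild-type C57BL/6 mice, 8 weeks old at purchase, kept on either diet for 6 weeks. The MCD diet produces fatty liver with inflammation. Live CD45+ Ly6G- cells with intermediate CD11b were sorted, with F4/80 given as low in the series text and as high on the sample labels. The labels do not say if each library came from a single animal or from pooled ones, so p-values measure the spread between libraries, which may be technical. In the class tests below, library is a block, and that spread is of the class difference within each library. Batch cannot be told apart from diet. The same rule applied to the NCD libraries, which it was not set on, took 127 and 94 cells, with 626 and 719 class II-low cells beside them.

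Class II molecules carry peptides from ingested material on the cell surface and show them to CD4+ T cells. Their alpha and beta chains (such as H2-Aa with H2-Ab1) travel with the invariant chain Cd74, and the H2-DM heterodimer then helps load the peptide. H2-Eb1 encodes another beta chain. The transactivator Ciita switches the whole set on through factors bound at the S, X and Y boxes in front of these genes. In the blood and liver, Ly6C-high monocytes arrive with little class II and a large set of granule, matrix and adhesion transcripts. Part of them gain class II as they mature, as do dendritic cells and some macrophages, so class II alone does not separate these types.

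The promoters of class II genes are shown because 7 of the 15 tested genes of this pathway outside the rule were higher in the comparison below. Sequences are 5′ to 3′ on the coding strand from RefSeq, build GRCm38.p6, and lie within the 250 bases before the annotated start. Capitals mark the Y box letters TGATTGG and the X box letters CNGATGATG, each searched on both strands. The first 2 belong to the rule genes H2-Aa, at chr17:34287852-34287928 on the minus strand, and H2-Eb1, at chr17:34305751-34305827 on the plus strand. H2-DMb1 lies at chr17:34153073-34153149 and its near copy H2-DMb2 at chr17:34145102-34145178, both on the plus strand. H2-Ob and H2-Eb2 were taken at chr17:34238791-34238867 and chr17:34325518-34325594, also on the plus strand.
H2-Aa: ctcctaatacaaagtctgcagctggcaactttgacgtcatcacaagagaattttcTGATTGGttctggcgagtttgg
H2-Eb1: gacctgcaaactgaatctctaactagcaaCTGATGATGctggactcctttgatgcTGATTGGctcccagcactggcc
H2-DMb1: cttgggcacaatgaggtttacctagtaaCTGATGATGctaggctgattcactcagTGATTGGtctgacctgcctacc
H2-DMb2: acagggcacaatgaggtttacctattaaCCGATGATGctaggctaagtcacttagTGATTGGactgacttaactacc
H2-Ob: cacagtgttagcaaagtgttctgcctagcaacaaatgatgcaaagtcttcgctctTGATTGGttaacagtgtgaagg
H2-Eb2: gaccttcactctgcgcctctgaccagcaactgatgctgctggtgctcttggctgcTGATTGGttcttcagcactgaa
The Y box letters began 50 bases before the start of H2-Aa, 61 before H2-Eb1, 63 before H2-DMb1 and 92 before H2-DMb2. They are present in the 300-base windows of 2431 of 27025 genes, 8.9954%. The X box letters are present in 1.1027% of genes, and both motifs stand in 1 window in 19 genes, 0.070305%, among them H2-Eb1, H2-DMb1 and H2-DMb2. Neither window of H2-DMa holds either motif. H2-Ab1, Cd74 and Ciita were not matched in the promoter table.

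The libraries differed in depth by diet. The deposited files hold 7518597 and 7428431 UMIs for NCD replicates 1 and 2 and 32975974 and 37772284 UMIs for MCD replicates 1 and 2. The median class II-high monocyte held 13098 and 11996 UMIs in the MCD libraries and 2205 and 2285.5 UMIs in the NCD libraries, and its median mitochondrial share was 3.5343% and 3.231% in MCD and 7.6241% and 7.4599% in NCD. Within a library the classes had close median depths, with 12339 and 11864 UMIs in class II-low cells of MCD and 2039 and 2234 in those of NCD. The lower quartiles differed in MCD, at 10844 and 9817.5 UMIs in class II-high and 7307 and 7606.5 in class II-low cells. The libraries shared between 4 and 12 cell barcodes per pair, 8 of them between the MCD libraries. Doublets were not called.

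The label was checked against markers on the scale of CPM (UMI counts of a gene scaled to a common total) in the summed cells. Monocyte and macrophage genes were both present at high levels. Ly6C-high monocyte genes, a list of 17, summed to 8336 and 8328 CPM in the class II-high monocytes of MCD replicates 1 and 2, against 15850 and 15166 in class II-low cells. The 15 Ly6C-low monocyte genes summed to 4463 and 4773, against 4549 and 4852. The 13 macrophage genes summed to 5877 and 6710, against 5310 and 6282. Of the 12 macrophage genes tested as described below, Maf, Csf1r, Ms4a7 and Mertk were higher and Adgre1 was lower. B cell genes summed to 25.3 and 19.7, with Ms4a1 and Pax5 at 0 in both libraries, and T cell genes to 3.16 and 1.79, with 5 and 8 of the 10 genes at 0. Conventional type 1 dendritic genes summed to 454 and 450, close to the 509 and 466 of class II-low cells, and Xcr1 stood at 0 and 1 UMI in the class II-high monocytes. The 15 type 2 dendritic genes outside the rule summed to 1001 and 941, against 661 and 648. Zbtb46, a transcription factor of conventional dendritic cells, had 2.51 and 4.14 CPM in class II-high monocytes and 1.62 and 3.89 in class II-low cells. The 13 Kupffer cell genes summed to 1565 and 1676, against 1044 and 1064, with Clec4f and Timd4 at 3 UMIs or fewer in either library, and 3 of the 4 that passed the low-count filter, Id3, Spic and Hpgd, were higher in class II-high monocytes in the test described below. Id3 alone made up most of these sums. Its rise was lost without cells holding UMIs of other-lineage genes, as given with the transcription factors below. The part of other cell types in the results was not tested. Hbb-bs came almost wholly from 1 cell of MCD replicate 1, which gave 98.6% of its UMIs in the class II-high monocytes of that library.

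**Figure D1:**
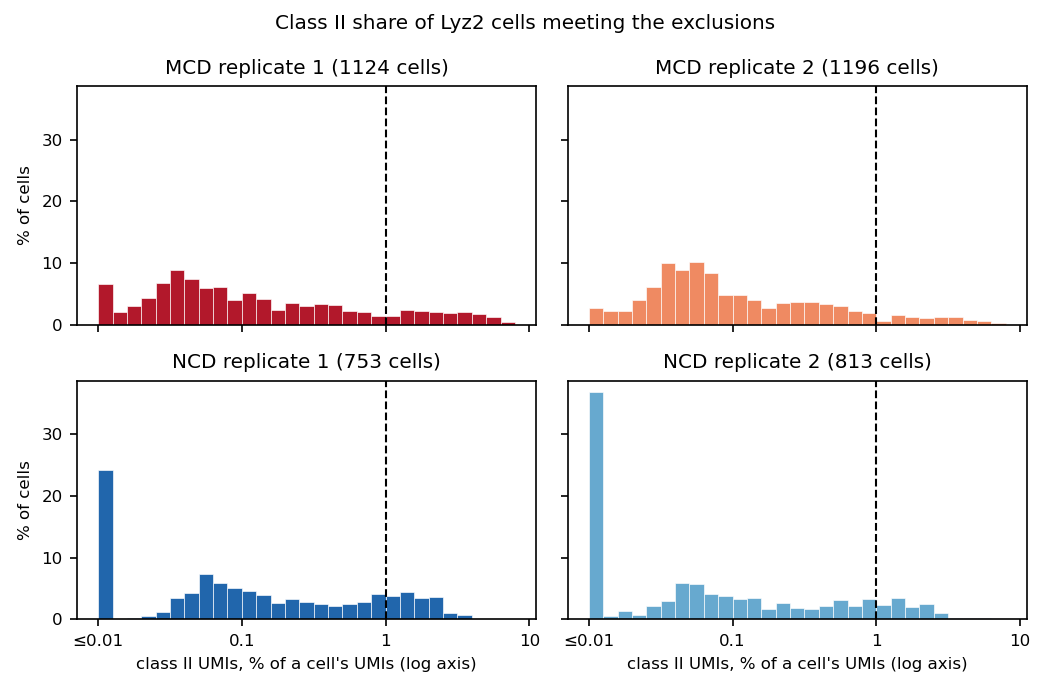
Histograms of the class II share of UMIs per cell (x axis, percent, log axis, with values at or below 0.01% in the first bin, which is tallest in the shallower NCD libraries) as percent of cells (y axis) for the Lyz2 cells that met the exclusions, 1 panel per library. The dashed line marks the 1% threshold of the rule. In every library most cells lie below it, with a smaller share above that does not decline steadily across the threshold.

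Class II transcripts were spread over a wide range, with cells on both sides of the threshold and no gap there. The median class II-high monocyte carried 2.4291% and 2.406% class II UMIs in MCD replicates 1 and 2, with the highest cell at 7.5678% and 7.9081%, while the median class II-low cell carried 0.058048% and 0.062648%. The plot of the class II share per cell shows cells in every bin between the classes, with the bulk below 0.1% in the MCD libraries. Counts did not fall steadily across the threshold. From -0.1 to 0.2 on the log10 scale, successive bins held 16, 15 and 26 cells in MCD replicate 1. The same bins held 23, 6 and 18 cells in MCD replicate 2. In NCD replicate 1 the share of cells rose from 2.12% between -0.4 and -0.3 to 4.38% between 0.1 and 0.2. Whether the cells above 1% form a separate group was not tested. For scale, NK-like cells held a median of 0.042254% and 0.063199% in the same libraries, with 3 of 53 and 3 of 42 cells at or above 1%. Eosinophil-like cells held 0.14009% and 0.25723%, above the class II-low medians, at a median depth of 1662 and 1558 UMIs. T cell-like cells held 0.062933% and 0.1431%, with 10 of 51 and 18 of 43 cells at or above 1%. When each cell's UMIs were split at random into 2 sets and the class was set on 1 of them, 96.86% and 92.75% of class II-high cells were again at or above 1% in the other set, as were 0.59% and 0.64% of class II-low cells. The class set this way held 223 and 138 class II-high cells, more than the rule took at full depth, since the exclusions count UMIs and genes.

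All 4 class II genes of the rule were high in both MCD libraries. H2-Aa stood at 5347 and 5081 CPM in class II-high monocytes against 164 and 161 in class II-low cells, and Cd74 at 13167 and 13542 against 654 and 683. H2-Ab1 was at 4554 and 4193 and H2-Eb1 at 3381 and 3195 in class II-high monocytes. These levels are CPM after TMM scaling (an adjustment of library totals for composition), the scale of all levels below unless another is named. Lyz2, lysozyme, was lower in the class II-high monocytes although both classes had to pass the same minimum, at 10821 and 14419 against 18664 and 23469. Of the excluded genes, Cd209a was at 3.76 and 6.63 in class II-high monocytes against 1.11 and 5.44, and Clec10a at 8.78 and 7.46 against 9.13 and 7.23. Despite the limit on C1q, C1qb was at 53.5 and 25.7 against 8.87 and 8.86, and C1qa and C1qc were also higher in both libraries. Trem2 was at 83.2 and 67.9 against 75.7 and 73.8. Lpl was at 126 and 296 against 82.6 and 136, and Cd9 was also higher in both libraries. Gpnmb and Spp1 differed in direction between the libraries. Up to 40.3% of the Lpl UMIs came from 1 cell.

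Cells just inside and just outside the threshold were few. Within 0.25 percentage points above the threshold there were 15 and 6 cells, and within the same distance below it 24 and 31. Ciita had 48.6 and 31.3 CPM of the cells' totals just inside and 21.7 and 30.4 just outside, and H2-DMb1 404 and 329 inside and 315 and 369 outside. Ciita was higher just inside in both libraries, by little in MCD replicate 2, while the order of H2-DMb1 differed between the libraries.

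To find what else separated the 2 classes, UMIs were summed per library and class and tested with edgeR's quasi-likelihood F test with library as a block, over 9315 genes. In MCD, 443 genes were higher in class II-high monocytes, 4.76% of those tested, and 552 were lower, 5.93%, at a Benjamini-Hochberg adjusted p under 0.05. The genes of the rule are among them, and 433 higher and 551 lower genes stood outside it. DESeq2 called 114 higher and 136 lower genes, all of which edgeR had called. With the class set on 1 set of UMIs, which gave 223 and 138 class II-high cells, and the test run on the other, 952 genes were called. Without MCD replicate 1 the count was 468, and without cells holding 2 or more UMIs of other-lineage genes, which left 51 and 23 class II-high monocytes, it was 92, with all 12 largest rises still called. All 12 largest rises and 12 largest falls among well expressed genes kept their calls without each library in turn and in DESeq2.

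Genes that act in the class II pathway were among the rises. Ciita, the class II transactivator, had 68.6 and 59.6 CPM in the class II-high monocytes of MCD replicates 1 and 2 and 6.23 and 3.19 in class II-low cells. Both class II-high values lay far above both class II-low values, a log2 difference of 3.76 (SE 0.22, adjusted p = 1.94e-10). H2-DMb1, the beta chain of the peptide exchange molecule H2-DM, stood at 520 and 457 against 85.5 and 67.6, a log2 difference of 2.68 (SE 0.09, adjusted p = 5.55e-14). Its partner H2-DMa stood at 463 and 470 against 173 and 156, a log2 difference of 1.5. Ciita and the 2 H2-DM chains did not overlap between classes in any library.

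Of 16 class II pathway genes outside the rule in the files, 15 passed the low-count filter, 7 were higher and 1 was lower, with a median log2 difference of 0.57 beside -0.01 over all genes. Besides Ciita, H2-DMa and H2-DMb1 the higher genes were H2-DMb2, H2-Ob, H2-Eb2 and Lgmn, a lysosomal protease that trims the invariant chain. H2-DMb2, H2-Ob and H2-Eb2 were at 17.4 CPM or less, each lost the call without at least 1 of the MCD libraries, and H2-DMb2 is a near copy of H2-DMb1, so that reads can be shared. Without MCD replicate 2 the log2 differences of H2-DMb2 and H2-Ob were 0.69 and 1.27, and without MCD replicate 1 that of H2-Eb2 was 4.27 with an adjusted p of 0.1091. March1, a ubiquitin ligase that removes class II from the surface, was the 1 lower gene, at 72.7 and 61.3 against 94.8 and 83.5. It lost the call without either MCD library (-0.46 and -0.39) and stood at 0.11 with cells thinned to 1000 UMIs. The products of Ctss and Ifi30 act on antigen in the endosome. Cst3, Ctss and Ifi30 were abundant in both classes and did not pass the test, with log2 differences of 0.02, 0.12 and 0.23. Rfx5, Rfxank and Rfxap, whose products bind the X box together, were at 33.9 or less and did not pass it either.

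**Figure D2:**
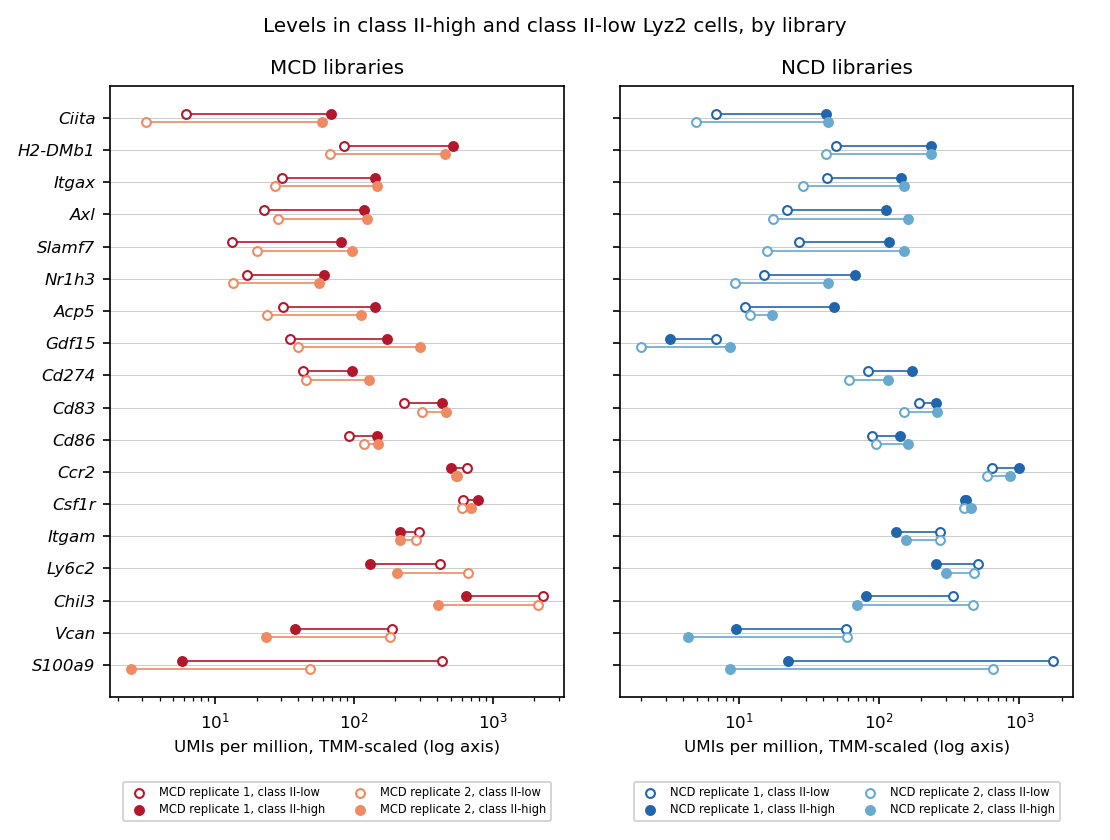
CPM after TMM scaling (x axis, log axis) of named genes (y axis) in class II-high and class II-low Lyz2 cells, 1 point per library and class, with the MCD libraries on the left and the NCD libraries on the right. Ciita, H2-DMb1, Itgax, Axl and Slamf7 lie higher in class II-high cells and Vcan, Chil3 and Ly6c2 lie lower in both MCD libraries, with no overlap between classes.

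Among receptors and surface molecules, the rises were of the same size in both libraries. Itgax, the integrin chain CD11c, stood at 142 and 148 CPM against 30.7 and 27.1, a log2 difference of 2.32 (SE 0.12, adjusted p = 6.22e-11). Axl, a receptor tyrosine kinase for phosphatidylserine-bound ligands, stood at 118 and 124 against 22.6 and 28.5, a log2 difference of 2.26 (SE 0.13). Slamf7, a self-binding receptor of the SLAM family, stood at 80.7 and 96.9 against 13.4 and 20, a log2 difference of 2.43 (SE 0.17). All 3 were seen in many cells, Itgax in 93 and 54 of the class II-high monocytes. Nr1h3, the oxysterol receptor LXR alpha, rose by a log2 difference of 1.93, and Acp5, Mmp14, Tspan33, Pdgfb and Rasgrp1 rose by between 1.89 and 2.44. Gdf15, a stress-induced cytokine, stood at 174 and 302 against 34.8 and 39.4, but it was seen in only 29 and 21 cells, and 1 cell gave 30.5% and 29.6% of its UMIs.

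Costimulatory and checkpoint genes moved in both directions. Of 13 tested, 7 were higher and 2 lower, with a median log2 difference of 0.52. Cd83, which keeps class II and Cd86 on the surface, was at 435 and 460 against 229 and 310 (log2 difference 0.76). Cd274, the ligand PD-L1, was at 97.4 and 128 against 43.1 and 45.4 (log2 difference 1.33). Cd86 and Cd40 were also higher, by 0.52 and 0.95 on the log2 scale, and lost the call without MCD replicate 1, at 0.33 and 0.49. Vsir, the inhibitory receptor VISTA, and Lgals9 were the 2 lower genes. Vsir lost the call without MCD replicate 1 (-0.39), and Lgals9 without either MCD library (-0.71 and -0.65). Class I presentation moved less, with 9 of 19 genes higher, none lower and a median of 0.37, and B2m, the class I light chain, was at 2821 and 2993 against 2098 and 2409. H2-Q6 and H2-Q7 were among the 9 and are near copies of each other.

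Interferon-response genes showed no shift of like size. Of 20 tested interferon gamma-response genes, 6 were higher and none lower, with a median log2 difference of 0.14, and Irf1 did not pass the test, with a log2 difference of 0.14. Of 20 tested type I interferon-response genes, 1 was higher and 3 were lower, with a median of -0.25. The T cell-attracting chemokine Cxcl9 was at 236 and 55.5 against 44.4 and 48.1 (log2 difference 1.62). It was seen in 19 and 10 class II-high monocytes, and without the UMIs of the leading cell in each sum the values in MCD replicate 2 were 31.5 against 34.9. Its relative Cxcl10 was at 412 and 424 against 278 and 316 (log2 difference 0.50), and 66.6% of its UMIs in the class II-high monocytes of MCD replicate 2 came from 1 cell. Without MCD replicate 1, neither passed the test, with log2 differences of 0.20 and 0.41.

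Inflammatory genes were divided. Of 17 tested cytokines and chemokines, 6 were higher and 4 lower. The abundant cytokine Il1b was at 2232 and 2095 against 1640 and 1714 (log2 difference 0.37), and Cxcl16, a membrane-bound chemokine, at 236 and 186 against 66.6 and 57.9 (log2 difference 1.76). Il1b lost the call without MCD replicate 1 (0.28) and turned to -0.25 without cells with other-lineage UMIs. Tnf, Il1rn, Ccl22 and Ptgs2 were the other higher genes, and Il6, Ccl2, Ccl6 and Ccl9 were the lower ones. Ccl6 stood at 693 and 776 against 1211 and 1354. Without MCD replicate 2, Tnf, Ccl22, Ptgs2 and Ccl9 lost their calls (0.48, 1.51, 0.27 and -0.34). Cxcl16 and Ccl6 were named after their values were seen.

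Transcription factors of the myeloid line were mostly at like levels. Of 22 tested, 6 were higher and 3 lower, with a median log2 difference of 0.11. Id3, an inhibitor of helix-loop-helix factors, was at 1237 and 1267 against 794 and 828 (log2 difference 0.63), and Batf3, Id2, Relb, Runx3 and Maf were the other 5. Without cells with other-lineage UMIs, Id3 and Id2 stood at -0.01 and -0.31 on the log2 scale. Klf2, Cebpb and Pou2f2 were lower. Calls were lost without MCD replicate 1 for Id2 (0.12) and Runx3 (0.43), and without either MCD library for Relb (0.52 and 0.50), Cebpb (-0.27 and -0.17) and Pou2f2 (-0.38 and -0.26). Irf8 and Spi1, which direct monocyte and macrophage fate, did not pass the test, and Csf1r, the receptor for CSF1, was at 792 and 700 against 614 and 600 (log2 difference 0.30), a call that was lost without either MCD library (0.21 and 0.36).

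The genes of freshly recruited monocytes fell as a group. Of 17 Ly6C-high monocyte genes, all of which passed the low-count filter, 14 were lower and none was higher, with a median log2 difference of -1.62. S100a8 and S100a9 are among the 14 and are also on the neutrophil list, with limits given below. Ifi27l2a, another of the 14, reversed without cells with other-lineage UMIs. Ly6c2, the Ly6C antigen itself, stood at 131 and 205 CPM against 417 and 666, a log2 difference of -1.68 (SE 0.09, adjusted p = 5.8e-11). Vcan, the matrix proteoglycan versican, stood at 38.0 and 23.2 against 190 and 184, a log2 difference of -2.54. Chil3, a chitinase-like protein of young monocytes, stood at 640 and 406 against 2309 and 2127, a log2 difference of -2.10. In each of these 3 genes both class II-high values lay below both class II-low values. Ccr2, the receptor that draws monocytes out of the marrow, was not among the 14 (506 and 544 against 659 and 553, adjusted p = 0.134), nor was the abundant gene Plac8.

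Genes of Ly6C-low monocytes moved in both directions. Of 15 tested, 5 were higher and 4 lower, with a median of -0.11. Adgre4, an adhesion receptor, stood at 235 and 216 against 123 and 128 (log2 difference 0.85), and Ace, angiotensin-converting enzyme, at 159 and 236 against 98.3 and 153 (log2 difference 0.66). Treml4, Eno3 and Gngt2 were the other higher genes, by 0.48, 0.60 and 0.39 on the log2 scale, and Cd300e, Fabp4, Pglyrp1 and Klf2 were the lower ones. Nr4a1, the factor those cells depend on, and the fractalkine receptor Cx3cr1 did not pass the test, at -0.16 and -0.17. Without MCD replicate 1 the calls of Treml4 (0.24), Eno3 (0.60) and Gngt2 (0.35) were lost, and that of Eno3 also without MCD replicate 2 (0.58). With cells thinned to 1000 UMIs, Adgre4 (0.37) and Ace (0.27) did not pass either.

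The largest falls were in granule genes. S100a8 and S100a9, the calprotectin subunits, had 4.18 and 3.31 and 5.85 and 2.49 CPM in class II-high monocytes, against 450 and 57.5 and 429 and 48.7 in class II-low cells. Retnlg stood at 7.11 and 5.80 against 149 and 205, and Lcn2, Padi4, Mmp8, G0s2, Tnfaip6, F5 and Prtn3 also fell. These falls went with neutrophil transcripts. All 9 tested neutrophil genes were lower, and the 12 neutrophil genes summed to 1822 and 592 CPM of the totals in class II-low cells and to 123 and 124 in class II-high monocytes, with Ly6g, Ngp and Ltf at 0 in the latter. When cells with more than 0.2% of UMIs from other-lineage genes, neutrophil genes among them, were left out, the log2 difference of S100a9 was -0.37 and no longer passed the test (adjusted p = 0.780), and 10 of the 11 largest falls with a value passed it. This limit was chosen after seeing the data. When cells with 2 or more such UMIs were left out, 7 of the 12 largest falls had a value and 3 of them passed the test. Retnlg, Lcn2 and Mmp8 are themselves among the other-lineage genes, so for them the removal of cells partly sets the outcome of both checks.

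Macrophage programmes were mixed. Of 17 tested lipid-associated macrophage genes outside the rule, 6 were higher and 5 lower, with a median of 0.15. Cd63 and Lipa, a tetraspanin and the acid lipase of lysosomes, were higher, at 52.2 and 29.8 against 12.9 and 11.7 and at 191 and 198 against 95.1 and 105. Lgals3, galectin-3, was at 1445 and 1398 against 1927 and 1913. Apoe did not pass the test (3116 and 4048 against 2737 and 3545). Of 22 lysosomal genes 4 were higher and 3 lower, Psap, the saposin precursor, among the higher at 4174 and 3960 against 3233 and 3228. Psap fell short of the threshold without MCD replicate 1 (0.28). Of 14 tested NRF2 targets and oxidative stress genes 7 were higher and 3 lower, with the ferritin chain Fth1 at 9361 and 9812 against 6222 and 6960. Cd63 and Lipa were named after their values were seen.

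**Figure D3:**
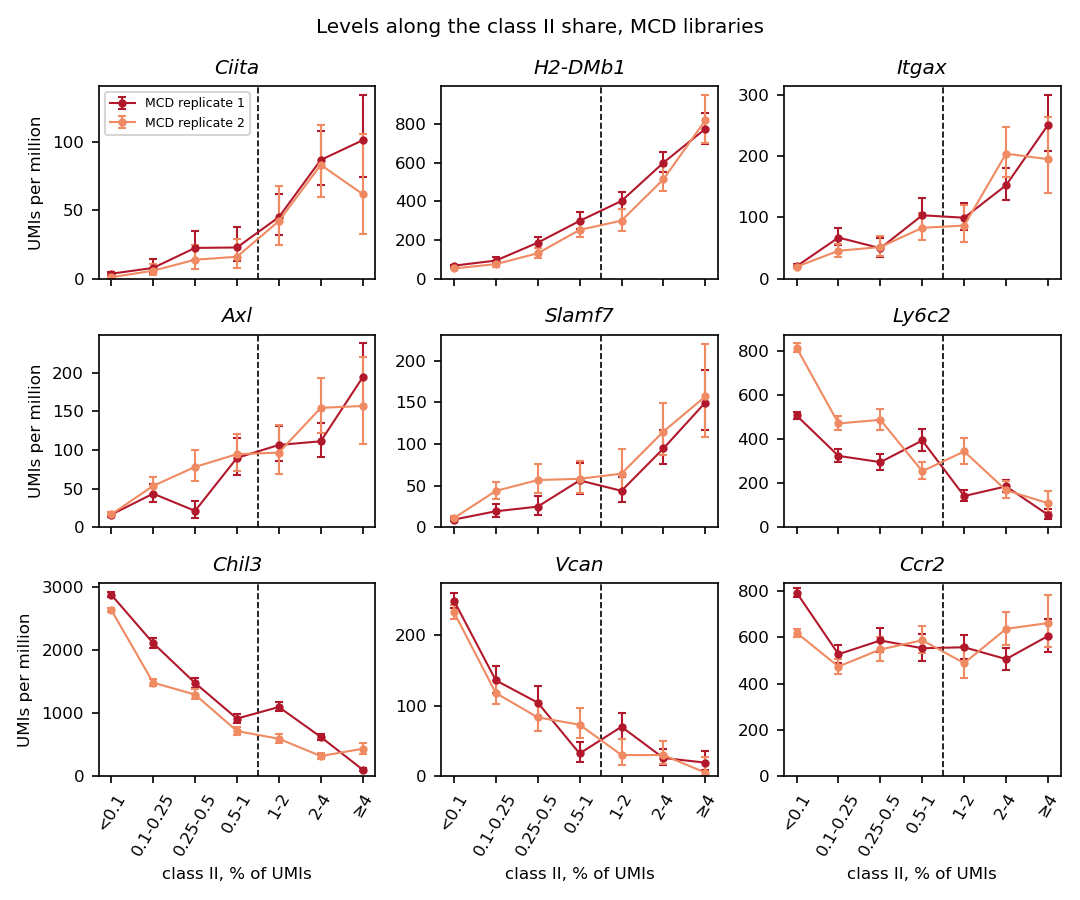
CPM of the cells' totals (y axis) for 9 genes in 7 bins of the class II share of UMIs (x axis, percent), 1 line per MCD library, with exact Poisson intervals that cover counting error only. The dashed line is the 1% threshold. Ciita and Itgax are higher and Ly6c2 and Chil3 lower in the highest bin than in the lowest in both libraries, with the change already under way below the threshold.

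The differences were graded along the class II share. Cells were put in 7 bins from below 0.1% to 4% and above, which held 616, 170, 106, 64, 66, 67 and 35 cells in MCD replicate 1 and 709, 180, 126, 85, 38, 40 and 18 in MCD replicate 2. Ciita rose from 3.63 CPM of the cells' totals in the lowest bin to 22.8 between 0.5% and 1% and 101 in the highest bin of MCD replicate 1, and from 1.02 to 16.0 and 61.9 in MCD replicate 2. Itgax rose from 20.2 to 251 and from 19.5 to 195. Cells below the threshold were thus already ordered by the same genes. Ly6c2 went from 508 to 57.0 in MCD replicate 1 and from 816 to 110 in MCD replicate 2, and Chil3 from 2885 to 101 and from 2644 to 433. Ccr2 stayed between 506 and 794 in MCD replicate 1 and between 474 and 662 in MCD replicate 2, with no slope in 1 direction. The bins were cut from class II transcripts of the same cells, so these values are a description. The highest bin of MCD replicate 2 rests on 18 cells.

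**Figure D4:**
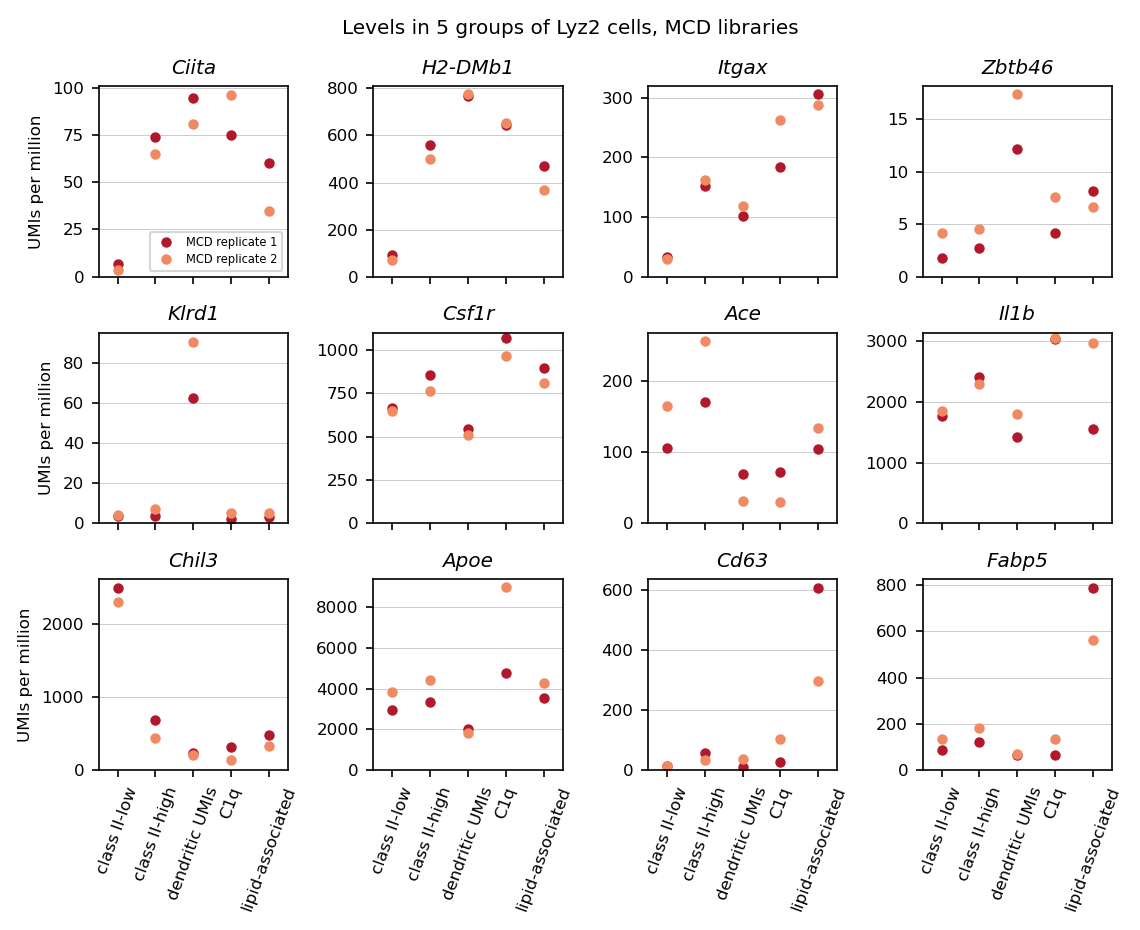
CPM after TMM scaling over the 10 sums of this comparison (y axis) in 5 groups of MCD Lyz2 cells (x axis), 1 point per library, for 12 genes. Class II-high monocytes lie with the other class II-high cells for Ciita, below the dendritic group for Klrd1 and Zbtb46, and below the lipid-associated group for Cd63 and Fabp5. H2-DMb1 was called lower in class II-high monocytes than in the dendritic group.

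The class II-high monocytes were not uniform. No Ly6c2 UMI was found in 89 and 44 of them, and 2 or more in 53 and 35, at median depths of 12933 and 10638 against 14124 and 13344 UMIs. Cells with no Ly6c2 UMI carried a median of 2.7321% and 2.6406% class II, and those with 2 or more 2.1045% and 2.1658%. Itgax stood at 216 and 283 CPM of the totals in cells without Ly6c2 and at 75.9 and 79.5 in cells with it. F13a1, coagulation factor XIII of monocytes, went the other way, at 92.8 and 81.5 against 216 and 264. Ciita was at 85.5 and 74.3 against 64.3 and 69.1, and Ccr2 at 540 and 568 against 625 and 636. The split used the depth-dependent count of 1 gene, so it is given without a test.

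To see where the class II-high monocytes differ from other class II-high Lyz2 cells, they were set against cells of the MCD libraries that failed a single exclusion. There were 125 and 182 cells with 2 or more dendritic UMIs only, 39 and 31 with C1q at or above 0.1% only, and 51 and 35 with 3 or more lipid-associated genes only. Levels in this comparison were TMM-scaled over its own 10 sums and so differ slightly from those above. Each of the groups was defined by the genes it was split on, and leaving out 1 library leaves the fit no residual degrees of freedom, so no such check was made.

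Against the dendritic group, 378 genes were higher, 4.22% of 8957, and 341 lower, 3.81%. The class II-high monocytes had more of the genes of monocytes that patrol vessels. Ace was at 171 and 257 CPM against 69.8 and 31.6, a log2 difference of 2.09 (adjusted p = 0.000808 in edgeR). Of 15 Ly6C-low monocyte genes 9 were higher and none lower, with a median of 0.88. Pla2g7, a secreted phospholipase of macrophages, was higher by 1.86 and Il1rn, the interleukin-1 receptor antagonist, by 2.02 on the log2 scale. Of 13 tested genes of type 2 dendritic cells outside the rule 6 were lower and 2, Itgax and Sirpa, higher, by 0.51 and 0.56 on the log2 scale. Klrd1, the lectin CD94, was at 3.60 and 7.22 against 62.5 and 90.4, and Zbtb46 at 2.70 and 4.51 against 12.2 and 17.4. Of 16 class II pathway genes 2 were higher and 6 lower, H2-DMb1 among them with a log2 difference of -0.55, while Ciita, at 73.8 and 65.0 against 94.7 and 81.0, did not pass the test (log2 difference -0.36, SE 0.18, adjusted p = 0.319). Ly6c2 was at 141 and 223 against 149 and 219. DESeq2 called 452 genes here, against 719 in edgeR.

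Against the C1q group, 136 genes were higher, 1.52%, and 80 lower, 0.893%. The class II-high monocytes kept more of the monocyte genes. Of 17 Ly6C-high monocyte genes 8 were higher and none lower, with a median of 0.95. F13a1 was at 144 and 163 against 45.7 and 25.3, a log2 difference of 2.07 (adjusted p = 0.00198 in edgeR), and Ly6c2 at 141 and 223 against 106 and 60.8. Of 13 macrophage genes 4 were lower, Apoe, Fcgr1, Mertk and Sepp1. Apoe, apolipoprotein E, stood at 3355 and 4412 against 4797 and 9012, and Axl at 127 and 135 against 303 and 408. Ciita did not pass the test, with a log2 difference of -0.29 (SE 0.25). In DESeq2, 10 of the 12 largest rises but only 4 of the 12 largest falls of this comparison kept the call.

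Against the lipid-associated group, 143 genes were higher, 1.6%, and 181 lower, 2.02%. Of 18 lipid-associated genes outside the rule 10 were lower and none higher, with a median of -1.10. Cd63 was at 56.2 and 32.5 against 606 and 296, and Fabp5, a fatty acid-binding protein, at 122 and 184 against 787 and 561 (log2 difference -2.22, adjusted p = 6.49e-05 in edgeR). Oxidative stress genes were lower in 9 of 15 cases, with Prdx1, a peroxiredoxin, at 562 and 587 against 3443 and 1994. Cd40 and the chemokine Cxcl10 were higher, Cxcl10 with the single-cell contribution given above. No class II pathway gene was higher and 1, Ifi30, was lower. In DESeq2, 8 of the 12 largest rises and 7 of the 12 largest falls kept the call.

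The same classes were then compared in the NCD libraries, which the rule was not set on. Here 189 genes were higher in class II-high cells, 2.03% of those tested, and 205 were lower, 2.2%. Outside the rule, 203 genes were called in both diets, 20.63% of the 984 called in MCD and 52.591% of the 386 called in NCD, and 197 of the 203 had the same direction. Of the 984 MCD calls, 82.215% had the same sign in NCD, beside 59.961% of the 9296 genes tested outside the rule. Ciita was at 41.5 and 43.1 against 6.85 and 4.96 (log2 difference 2.84, adjusted p = 0.00117) and H2-DMb1 at 233 and 233 against 49.3 and 41.7 (log2 difference 2.36). Itgax, Axl and Slamf7 were higher by 2.04, 2.79 and 2.67, and Vcan and Chil3 had log2 differences of -2.99 and -2.38. Of the 17 Ly6C-high genes 13 were lower and 1, Ccr2, was higher, at 996 and 853 against 633 and 584. At a mitochondrial limit of 5% the log2 difference of Ccr2 was -0.12. DESeq2 called 215 genes against 394 in edgeR, and at a mitochondrial limit of 5%, which left 9 and 10 class II-high cells, the count was 147. At that limit none of the 9 largest rises with a value passed the test, with Ciita at 1.62, H2-DMb1 at 1.32, Axl at 2.55, Slamf7 at 2.25 and Itgax at 0.31, and Vcan did not pass it (-1.45). Without cells with other-lineage UMIs 4 of the 12 largest rises and none of the 4 largest falls with a value passed. Ngp, Lcn2, Camp and Mmp8, among the largest falls, are genes of that filter, so for them the removal partly sets the outcome.

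The class difference itself changed with diet for few genes. The test of the interaction called 28 genes with a more positive difference in MCD, 0.301%, and 15 with a more negative one, 0.161%, and DESeq2 called 16 in all. Ly6c2 fell further with class in MCD than in NCD, where it was at 255 and 302 against 508 and 478 (log2 differences of -1.68 and -0.84, difference -0.85, adjusted p = 0.0121). Ace was higher in the class II-high cells of MCD (159 and 236 against 98.3 and 153) and lower in those of NCD (112 and 181 against 250 and 241), a difference of 1.44 on the log2 scale (adjusted p = 0.00111). With cells thinned to 1000 UMIs, 2 of the 24 named genes kept the call, Ace (0.98) and Ly6c2 (-0.37) not among them, and without cells with other-lineage UMIs 1 of the 23 with a value kept it. Il1b rose more with class in NCD (568 and 525.5 against 278 and 184), a difference of -0.88. The 13 endothelial genes summed to 874 and 1606 CPM of the totals in class II-high cells of NCD against 2467 and 3546 in class II-low cells, and to 781 and 557 against 521 and 961 in MCD. Its part in these differences was not tested. At a mitochondrial limit of 5% the differences of Ly6c2 and Il1b turned to 0.30 and 0.37, and without cells over 0.2% of other-lineage UMIs that of Ly6c2 was -0.49 and no longer passed the test.

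**Figure D5:**
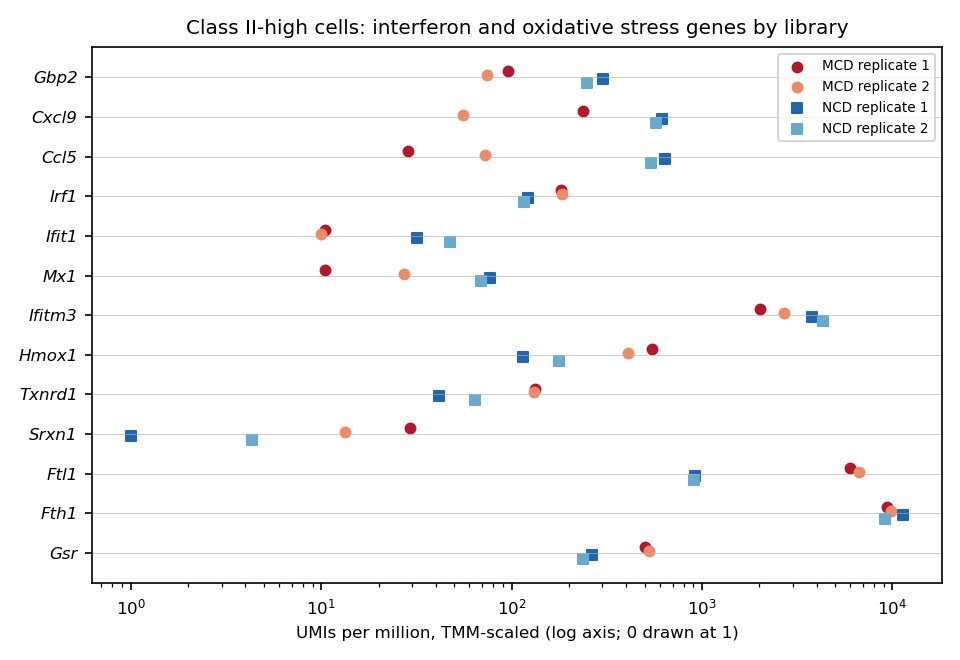
CPM after TMM scaling over all 8 sums (x axis, log axis, 0 drawn at 1) of 13 interferon and oxidative stress genes (y axis) in class II-high cells, 1 point per library and diet. Gbp2, Cxcl9 and Ccl5 lie lower and Hmox1, Txnrd1 and Ftl1 higher in the 2 MCD libraries than in the 2 NCD libraries.

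Between diets, the class II-high cells differed in many genes. Over 6517 tested genes, 706 were higher in MCD, 10.8%, and 763 lower, 11.7%, with DESeq2 at 278 and 418. Depth and mitochondrial share also separated the diets, and at a mitochondrial limit of 5% the count was 113 and none of the 12 largest rises passed the test. Without NCD replicate 1, MCD replicate 1 or MCD replicate 2 it was 849, 687 and 823. The median over all genes was 0.01. Without TMM scaling it moved by over 0.1 to 0.38, with 1453 genes higher and 409 lower, so directions below are relative to TMM scaling. The limit of 1 dendritic UMI is a larger share of a cell's UMIs in the shallower NCD libraries. Cd209a was at 3.76 and 6.63 CPM in MCD and at 31.9 and 38.8 in NCD, there on 10 and 9 UMIs. Mgl2 and Clec10a were also higher in both NCD libraries, while Flt3, Ccr7 and Fscn1 overlapped between diets. The part of dendritic transcripts in the diet differences was not tested.

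Class II itself was present in both diets. Of 11 tested class II pathway genes outside the rule 2 were higher in MCD, H2-DMb1 (506 and 449 CPM over the 4 sums of this comparison against 241 and 238, log2 difference 1.0) and Ifi30, and none was lower. Ifi30 lost the call without either MCD library (0.60 each). Ciita was at 66.8 and 58.5 against 42.9 and 44.0 and did not pass the test (log2 difference 0.55, SE 0.30, adjusted p = 0.205). Class I genes went both ways, with B2m at 2748 and 2937 against 5600 and 5462 and H2-D1 higher by 1.06 on the log2 scale.

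Interferon-response genes were lower in MCD. Of 19 tested interferon gamma-response genes 7 were lower and 1 higher, with a median of -1.01, and of 18 type I genes 9 were lower and none higher, with a median of -0.80. Gbp2, a guanylate-binding protein, was at 93.6 and 73.2 against 313 and 255 (log2 difference -1.76, SE 0.20, adjusted p = 9.95e-06 in edgeR), and Cxcl9 at 230 and 54.5 against 639 and 585. Ccl5 was at 27.7 and 71.5 against 663 and 555. Gzma and Klrd1 were lower with it, with log2 differences of -5.74 and -3.65. Both are genes of cytotoxic lymphocytes, and Klrd1 is also on the type 2 dendritic list used above. NK and innate lymphoid genes summed to 39.7 and 85.0 CPM of the totals in MCD and to 696 and 583 in NCD, and their part in these differences was not tested. At a mitochondrial limit of 5%, which left 9 and 10 class II-high cells in the NCD libraries, the differences of Ccl5, Cxcl9 and Gbp2 turned to 0.34, 0.44 and 1.21.

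Oxidative stress genes were higher in MCD. Of 13 tested 9 were higher and none lower, with a median of 1.20. Hmox1, heme oxygenase 1, was at 531 and 402 against 119 and 180 (log2 difference 1.68, adjusted p = 4.7e-05), and the ferritin light chain Ftl1 at 5833 and 6571 against 946 and 933 (log2 difference 2.72). Il1b, Chil3 and Apoe were higher by 1.91, 2.74 and 1.84. Ccr2 and Plac8 were lower, with log2 differences of -0.89 and -1.33. Trem1, an amplifier of inflammatory signals, was at 26.5 and 43.9 in MCD and had no UMI in NCD. The endothelial list was lower in MCD as well, with 9 of 13 genes called, and Gng11, Btnl9 and Prex2 were among the largest falls.

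The share of class II-high cells depended on the denominator. Of the Lyz2 cells that met the exclusions, 14.947% (exact Clopper-Pearson 95% interval 12.912 to 17.167) and 8.0268% (6.5498 to 9.7138) were class II-high in MCD replicates 1 and 2, and 16.866% (14.259 to 19.735) and 11.562% (9.4451 to 13.962) in NCD. The intervals cover counting error only. The values of the diets overlapped, and the difference of means was -2.727 percentage points (exact two-sided permutation p = 0.667, with 0.33 the smallest that 2 against 2 libraries allow). The sign turned to 2.338 points at a threshold of 2% and to 0.7326 without MCD replicate 2. As a share of all Lyz2 cells, the class II-high cells that met the exclusions were 9.0371% and 4.4548% in MCD and 14.08% and 9.8532% in NCD, so that both MCD values lay below both NCD values. As a share of all class II-high Lyz2 cells they were 36.601% and 22.378% in MCD and 57.207% and 55.621% in NCD. The exclusions count UMIs and genes and so move with depth. With cells thinned to 1000 UMIs, the Lyz2 cells meeting them went from 1124 of 1859 to 1695 of 1887 in MCD replicate 1 and from 1196 of 2155 to 1928 of 2197 in MCD replicate 2, and from 753 of 902 to 837 of 947 and from 813 of 954 to 870 of 982 in NCD.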

How the data were processed

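Single-cell RNA-seq of liver monocyte-derived macrophages gave 2 NCD and 2 MCD libraries (10x 3' v3). The authors' files hold UMI counts for each gene in each cell, made with Cell Ranger 3.0.2, per the file headers, on mm10, per the submitters' processing notes. Cells had 200 or more genes and no more than 10% of UMIs from mitochondrial genes, over the 27998 genes shared by the files. Counts were summed per library and class, giving 254062 to 2215232 UMIs for class II-high sums. Sums were tested with edgeR 4.0.16 quasi-likelihood tests (R 4.3.3, TMM scaling, Benjamini-Hochberg adjusted p under 0.05), all 8 sums in 1 fit with library as a block for the class comparisons and their interaction, the 4 class II-high sums for diet, and 10 sums for the other class II-high groups, a comparison added after the data were seen. DESeq2 1.42.0 was an alternative. The class contrast uses genes of the cells that set the class, so it was repeated on held-out UMIs. Shares were compared by exact permutation.

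Genes named were those of the rule, up to 12 rises and 12 falls per comparison with the largest log2 difference that passed, did not overlap between groups and reached 20 CPM in each library of the higher group, leaving out ribosomal, mitochondrial and unnamed genes, plus a fixed set and the most abundant members of each gene list. Other genes were named after their values were seen, and some genes are not reported here. The members and lists were chosen with earlier results of these data known. In simulated counts for the class comparison in MCD, run on 9363 genes, 10.4%, 67.2% and 93.9% of changed genes were recovered at 1.5-fold, 2-fold and 4-fold. The simulation used the same assumed spread for every gene, not estimated from the data. Changes were placed only in genes above a minimum of expected UMIs. The rates therefore do not cover genes with few UMIs or a wider spread. Alternatives covered scaling, filters, thresholds, depth, left-out libraries and a replicate block. Same-numbered NCD and MCD libraries did not deviate together (r = 0.01 across 6517 genes).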

Additional observations from a re-analysis of the deposited data

Results flagged for a closer look

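The class difference itself differed between diets, by the interaction test in edgeR with Benjamini-Hochberg adjustment, for 24 genes that met the naming rule, out of 43 called. Values are the log2 class difference in MCD minus that in NCD. More positive in MCD were Clec4g (2.67), Cd38 (2.67), Slc12a2 (2.31), Stab1 (1.87), Plpp3 (1.75), Cyth3 (1.57), Ace (1.44), Hist1h2ap (1.39), Spn (1.39), Maf (1.30), Mylip (1.28) and Cxcl10 (1.21). More negative were Fgl2 (-1.25), C3 (-1.06), Il1b (-0.88), Ly6c2 (-0.85), Emb (-0.84), Ccr2 (-0.81), S100a11 (-0.78), Ccl6 (-0.68), Ifi30 (-0.67), Npc2 (-0.62), Vim (-0.58) and Ctss (-0.45). In the class II-high monocytes of MCD replicate 2, 1 cell gave 78.6% of the Plpp3 UMIs, 66.6% of those of Cxcl10 and 43.8% of those of Clec4g. Clec4g is on the endothelial list, whose summed level moved with class in NCD as given above. Stab1 and Plpp3 are not on that list. Calls were lost without MCD replicate 1 for Plpp3 (1.14), Cyth3 (1.37), Hist1h2ap (1.35), Emb (-0.83), S100a11 (-0.73), Ifi30 (-0.57) and Ctss (-0.43), and without NCD replicate 1 for Stab1 (1.42), Spn (1.20), Mylip (1.10), Fgl2 (-0.95), Emb (-0.68), Ifi30 (-0.54) and Vim (-0.39). Ctss also lost the call without NCD replicate 2 (-0.33) and without MCD replicate 2 (-0.47). With cells thinned to 1000 UMIs 2 of the 24 kept the call. Without cells over 0.2% of other-lineage UMIs 18 of the 24 lost the call and Clec4g reversed (-0.25). Clec4g is itself one of the other-lineage genes, so the removal of cells partly sets its value.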

How the results depend on the processing

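Of 3667 values of 298 named log2 differences under the alternatives, 3070 kept their direction and side of the threshold, 501 no longer passed, 67 newly passed and 29 reversed. Main counts of called genes were 995 for class in MCD, 394 for class in NCD, 43 for the difference between diets and 1469 for diet. DESeq2 gave 250, 215, 16 and 696 (adjusted p not given for 723, 4334, 5237 and 1264 genes). Leaving out 1 library gave 468 to 1441, 284 to 510, 39 to 169 and 687 to 1238. A mitochondrial limit of 5% gave 147, 121 and 113 for NCD, the difference and diet, and one of 20% gave 670 and 103 for NCD and the difference. Without cells with other-lineage UMIs the 4 counts were 92, 73, 2 and 760, and without cells over 0.2% of them, a limit chosen after seeing the data, the difference had 22. Without cells above 2 times the median UMIs, NCD had 187 and the difference 16. Cells thinned to 1000 UMIs gave 559, 166 and 775 for MCD, NCD and diet, count splitting gave 256 for NCD, and class II thresholds of 2% and 0.5% gave 473 for diet. Without the low-count filter the difference had 118, and the C1q and lipid-associated comparisons 478 and 628 (main 216 and 324), with 318 higher and 1018 lower for class in MCD. Without TMM scaling NCD split into 145 higher and 280 lower. Against the dendritic group DESeq2 gave 452 (main 719). With the replicate block the diet count was 1576, of which 1425 were among the 1469.

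Reversals at the 5% mitochondrial limit, for the difference between diets, were Mylip -0.49, Fgl2 0.28, C3 0.67, Il1b 0.37, Ly6c2 0.30, Emb 0.79, S100a11 0.63, Ifi30 0.12, Npc2 0.49, Vim 0.62 and Ctss 0.30. At the same limit Rasgrp1 (-0.34) and Ccr2 (-0.12) reversed for class in NCD, and Ccl5 (0.34), Cxcl9 (0.44) and Gbp2 (1.21) for diet. Without cells with other-lineage UMIs, Ifi27l2a (0.075), Id3 (-0.012), Id2 (-0.31), Il1b (-0.25) and Hmox1 (-0.96) reversed for class in MCD and Mylip (-0.11) for the difference. Clec4g, itself one of the other-lineage genes, was -0.25 without cells over 0.2% of other-lineage UMIs. Thinned, Plpp3 was -0.032, Npc2 0.0023, March1 0.11 and Ptgs2 -0.14. Hmox1 ranged from -0.47 without MCD replicate 1 to 0.69 without MCD replicate 2, and Prdx1 -0.11 against class II-low cells without the other exclusions. The share difference was 2.338 points at a 2% threshold, 6.355 without cells with other-lineage UMIs, and -6.187 to 0.7326 with 1 library left out. The cause was not tested. The class II-high sums held 364904 and 254062 UMIs in NCD against 2215232 and 1117502 in MCD, so small differences were less detectable in NCD.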
